A study of Mus musculus with 12 samples.

Results

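The genes described here are 9 transcription factors and regulators that shape the macrophage lineage: Spi1, Cebpa, Cebpb, Maf, Klf4, Id3, Nr4a1, Irf5 and Tfec. They were taken by symbol from a table of 56832 mouse genes, and all 9 were among the 15758 genes with enough reads to be tested. The RNA came from cells labelled macrophages and sorted from mouse bone marrow as CD45+, F4/80+, Ly6g- and Ly6c-. That is, they were sorted by a leukocyte marker and a macrophage marker and against a neutrophil and a monocyte marker. Leukemic mice had received a graft of bcCML cells, a model of chronic myeloid leukemia in blast crisis, and were taken late in the disease, at a time labelled day 11, and non-leukemic mice were healthy. There were 3 male leukemic, 3 female leukemic, 3 male non-leukemic and 3 female non-leukemic libraries. The labels give no strain, age or marrow donor for either condition. They do not say that each library came from a separate mouse, so p-values measure only the spread between these libraries, which may be technical.

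A macrophage is built by a small group of factors acting in turn. PU.1, the product of Spi1, together with the C/EBP factors opens the enhancers of the myeloid lineage, and C/EBPα is needed for the step from early progenitors to granulocyte and monocyte precursors. MAF family factors hold mature macrophages out of division and switch on their clearance genes, Klf4 and Nr4a1 are used by monocytes, Id3 is needed by the liver's resident macrophages, Irf5 drives inflammatory cytokines, and Tfec is a relative of the lysosomal factor Tfeb that is largely restricted to macrophages.

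Libraries held 22437689 to 30014855 reads assigned to genes in the leukemic condition and 16911827 to 26611831 in the non-leukemic condition. The lowest count of any of the 9 genes was 122, for Maf in male non-leukemic replicate 1, where it gave 5.53 counts per 1000000 reads (CPM) with a 95% Wilson interval of 4.63 to 6.6 that covers counting error only. Male non-leukemic replicate 3 stood apart, with a summed share of 12 pan-macrophage markers of 0.575% of counts, where the remaining non-leukemic libraries held 0.166 to 0.231%. In female leukemic replicate 1 fewer genes had reads, 17891, where the remaining 11 libraries had 19521 to 21247. Both genes of the positive sort were detected in every library. Ptprc, which encodes CD45, averaged 593 ± 222 CPM in leukemic and 347 ± 52.9 CPM in non-leukemic libraries (SD, n = 6 each). Adgre1, which encodes F4/80, averaged 52.8 ± 12.3 CPM in leukemic and 121 ± 68.1 CPM in non-leukemic libraries. Ptprc was higher and Adgre1 lower in leukemic libraries in the test described below (edgeR adjusted p = 0.0238 and 0.0129). Genes of the markers sorted against were also detected. Ly6g averaged 12.5 ± 7.31 CPM in leukemic and 47.9 ± 19.4 CPM in non-leukemic libraries. Ly6c2 averaged 200.8 ± 106 CPM in leukemic and 268.5 ± 101.4 CPM in non-leukemic libraries. Markers of other blood cells were present and differed between conditions. Neutrophil markers made up 1.33 to 2.87% of counts in leukemic and 2.92 to 6.77% in non-leukemic libraries, and erythroid markers 0.0820 to 0.157% in leukemic and 1.53 to 2.01% in non-leukemic libraries. Eosinophil, basophil and mast cell markers made up 1.14 to 3.68% in leukemic and 0.585 to 1.15% in non-leukemic libraries. T and NK cell markers made up 0.119 to 0.256% in leukemic and 0.0284 to 0.0555% in non-leukemic libraries, and stem and progenitor markers 0.0921 to 0.142% in leukemic and 0.0588 to 0.0959% in non-leukemic libraries. The neutrophil and erythroid shares were thus lower in leukemic libraries, and the T and NK cell share higher, without overlap. No gene of these lists was at 0 in all 12 libraries. In sorted bulk RNA, fewer cells of a type and less RNA per cell cannot be told apart, and the part of these cells in the results below was not tested.

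Cebpa was the only one of the 9 genes to pass the test between leukemic and non-leukemic libraries. It was 1.75-fold higher in leukemic libraries, a call lost in 7 of 12 fits that left out a library and against a minimum change of 1.5-fold. The other 8 genes did not pass, which does not show that they were equal in both conditions, since intervals were wide for several. Genes were tested with edgeR's quasi-likelihood test with sex as a term and Benjamini-Hochberg adjustment over all 15758 genes, at an adjusted p under 0.05. Across all tested genes 17.9% passed, 8.71% higher and 9.2% lower, so 1 of 9 (1 higher, 0 lower) is near the background and is not a result about the group. The median log2 fold change of the 9 genes was 0.0, and that of all tested genes was -0.01. Of all tested genes, 5.05% had all leukemic above all non-leukemic libraries and 3.63% had all below. These shares are the background for the genes without overlap below.

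**Figure D1:**
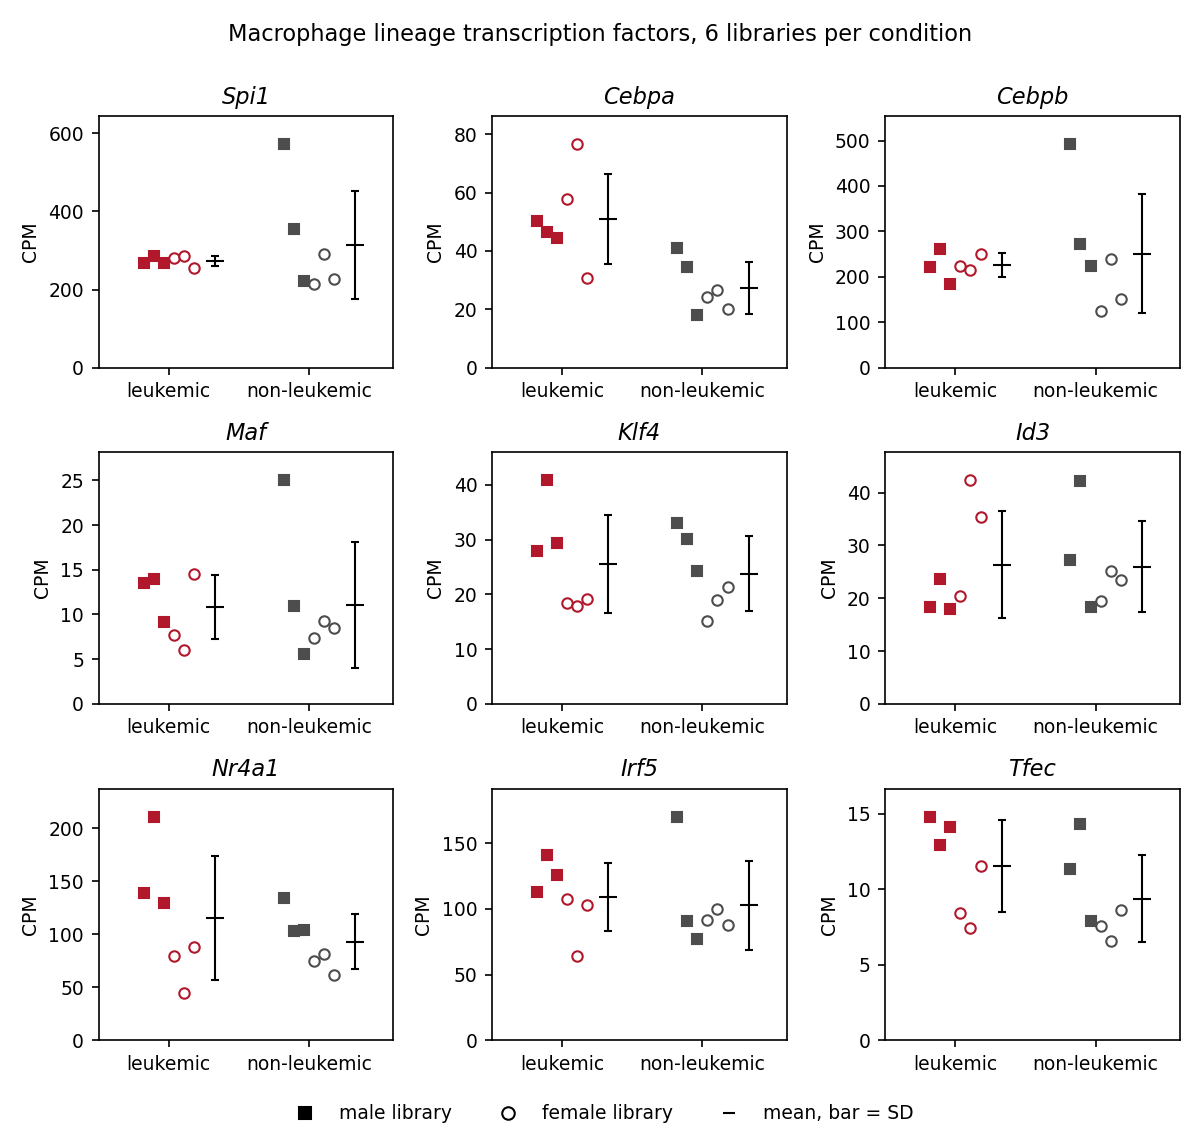
CPM of each of the 9 genes in every library, with leukemic libraries left of non-leukemic libraries and a mark for each sex; horizontal lines are means and bars are SDs over 6 libraries. For Cebpa, 5 of the 6 leukemic libraries lie above every non-leukemic library, and for the other 8 genes the conditions overlap broadly.

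Expressed per kilobase of exon, so that genes can be set beside each other, the order of levels was led by Cebpb and Spi1 in both conditions. Cebpb averaged 150 ± 18 CPM per kilobase in leukemic and 167 ± 86.8 in non-leukemic libraries, and Spi1 101.5 ± 4.69 in leukemic and 116 ± 51.1 in non-leukemic libraries (SD, n = 6 each). Irf5 followed at 37.6 ± 8.96 in leukemic and 35.4 ± 11.7 in non-leukemic libraries, and Nr4a1 at 32.9 ± 16.6 in leukemic and 26.5 ± 7.44 in non-leukemic libraries. Cebpa averaged 19.4 ± 5.83 CPM per kilobase in leukemic and 10.4 ± 3.36 in non-leukemic libraries, and Id3 14.7 ± 5.66 in leukemic and 14.5 ± 4.82 in non-leukemic libraries. These 4 genes formed the middle of the order. The lowest 3 were Klf4 at 8.39 ± 2.95 in leukemic and 7.80 ± 2.22 in non-leukemic libraries, Tfec at 2.06 ± 0.541 in leukemic and 1.67 ± 0.513 in non-leukemic libraries, and Maf at 1.31 ± 0.440 in leukemic and 1.35 ± 0.853 in non-leukemic libraries. Cebpb lay above Spi1, Spi1 above Irf5, and Klf4 above Tfec in all 12 libraries. Irf5 lay above Nr4a1 in 9 of 12 libraries, so this pair was not separated beyond its spread. The order of Cebpa and Id3 differed with the condition: Cebpa lay above Id3 in 5 of 6 leukemic libraries and in 1 of 6 non-leukemic libraries.

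Spi1 encodes PU.1, the Ets family factor that all macrophages need. It ranged between 254 and 286 CPM in leukemic libraries (median 274), against 213 to 572 CPM in non-leukemic libraries (median 258). The leukemic values sat close together, inside the span of the non-leukemic values, whose highest was male non-leukemic replicate 3. Its log2 fold change was -0.25 ± 0.23 (SE; 95% interval -0.74 to 0.25; edgeR adjusted p = 0.524). Without that library the log2 fold change was 0.01.

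Several genes known to be driven by PU.1 fell, while Spi1 itself did not pass. Over all tested genes 9.2% fell. Of 11 listed PU.1 target genes, 5 fell, 0 rose and 6 did not pass. Their median log2 fold change was -0.56, against -0.01 over all genes. Within the sexes, 4 fell in males (median -1.14) and 0 passed in females (median -0.17, with 4 of 11 above 0), where 7.37% and 8.43% of all tested genes passed. No gene passed the test of the difference between the sexes in edgeR, so these counts do not show that the sexes differed. Lyz2, the macrophage and neutrophil lysozyme, averaged 2102 ± 505 CPM in leukemic and 6178 ± 2633 CPM in non-leukemic libraries (SD, n = 6 each; log2 fold change -1.60 ± 0.31, edgeR adjusted p = 0.00307). Cybb, the catalytic subunit of the phagocyte oxidase, fell by 1.18 ± 0.25 on the log2 scale (edgeR adjusted p = 0.0056), and Csf2ra, a subunit of the GM-CSF receptor, fell by 0.85 ± 0.19 (edgeR adjusted p = 0.00809). All 6 leukemic libraries lay below all 6 non-leukemic libraries for each of these 3 genes, a pattern shown by 3.63% of all tested genes. The neutrophil marker share was also lower in leukemic libraries, and its part in these values was not tested. Of the Ets relatives of PU.1, Spic, which heme induces in macrophages that recycle red cells, averaged 14.9 ± 5.74 CPM in leukemic and 25.6 ± 12 CPM in non-leukemic libraries (edgeR adjusted p = 0.098).

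Cebpa encodes C/EBPα, a basic leucine zipper factor with an intronless gene. It was at 44.5, 46.5 and 50.4 CPM in male leukemic and 30.6, 76.6 and 57.7 CPM in female leukemic libraries, against 17.9, 34.4 and 41.0 CPM in male non-leukemic and 20.1, 26.7 and 24.1 CPM in female non-leukemic libraries. Within each sex, all 3 leukemic libraries lay above all 3 non-leukemic libraries. Across the sexes, 5 of 6 leukemic libraries lay above every non-leukemic library, and female leukemic replicate 1, at 30.6 CPM, did not. The log2 fold change was 0.81 ± 0.24 (SE; 95% interval 0.28 to 1.34), with an edgeR adjusted p of 0.0361. This call was close to the threshold: the direction held with each of the 12 libraries left out in turn, with a log2 fold change of 0.68 to 0.99, but the adjusted p passed in only 5 of those 12 fits and reached 0.0838 in the others, which left out female non-leukemic replicate 1, 2 or 3, male non-leukemic replicate 1, female leukemic replicate 2 or 3, or male leukemic replicate 3. Against a minimum change of 1.5-fold the edgeR adjusted p was 0.447. Without both libraries that stood apart (replicate 1 of the female leukemic and replicate 3 of the male non-leukemic group) the log2 fold change was 1.12 with an edgeR adjusted p of 0.00152. They hold the lowest leukemic Cebpa value, 30.6 CPM, and the highest non-leukemic value, 41.0 CPM. Leaving them out therefore had to widen the difference, and that fit is no support for the call.

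The highest Cebpa level, 76.6 CPM, was in female leukemic replicate 2, which also held the highest share of eosinophil, basophil and mast cell markers, 3.68% of counts against 1.14 to 1.87% in the other leukemic libraries. The same library had the lowest share of pan-macrophage markers in the leukemic condition, 0.107% against 0.195 to 0.216%. Without it the log2 fold change of Cebpa was 0.68, with an edgeR adjusted p of 0.0664. Of 10 stem and progenitor markers, 7 rose and 0 fell in leukemic libraries, where 8.71% of all tested genes rose and 9.2% fell. Of 15 eosinophil, basophil and mast cell markers, 5 rose and 2 fell. Those that rose were the basophil and mast cell genes Mcpt8, Prss34, Cpa3, Ms4a2 and Fcer1a. Those that fell were the eosinophil genes Ear2 and Ccr3. Female leukemic replicate 1, with the lowest leukemic Cebpa level, 30.6 CPM, held an eosinophil, basophil and mast cell share of 1.78%. The part of these cells in the Cebpa result was not tested.

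Cebpb, which encodes C/EBPβ, is the family member that inflammatory signals induce in mature macrophages. It ranged between 185 and 262 CPM in leukemic libraries (median 222), against 125 to 492 CPM in non-leukemic libraries (median 232). Its groups overlapped, and the log2 fold change was -0.16 ± 0.28 (SE; 95% interval -0.76 to 0.45; edgeR adjusted p = 0.764). Male non-leukemic replicate 3 again held the highest value, and without it the log2 fold change was 0.11. The annotated exons of Cebpb share 312 bases with Tmem189 on the opposite strand, and the library kit does not mark strand, so reads of that stretch could not be assigned with certainty.

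Ratios within each library were taken between Cebpa, Cebpb and Spi1. The ratio of Cebpa to Spi1 CPM was between 0.120 and 0.267 in leukemic libraries (median 0.177), against 0.0718 to 0.113 in non-leukemic libraries (median 0.0905). All 6 leukemic libraries lay above all 6 non-leukemic libraries, the libraries that stood apart included. The ratio of Cebpa to Cebpb ranged between 0.122 and 0.355 in leukemic libraries and between 0.0795 and 0.193 in non-leukemic libraries, with 4 of 6 leukemic libraries above every non-leukemic one. The ratio of Cebpb to Spi1 overlapped fully, at 0.693 to 0.982 in leukemic and 0.586 to 1.01 in non-leukemic libraries. These ratios are given as descriptions, without a test. The pairs were picked, and the share of all gene pairs whose ratio separates the conditions was not counted. Of single genes, 5.05% had all leukemic above all non-leukemic libraries.

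While Cebpa rose, 3 other C/EBP genes fell and Cebpb and 1 more relative did not pass, in the fit over both sexes. Within the sexes, Cebpa passed in females and not in males. Of the 25 relatives of all families, not only C/EBP, 4 rose and 3 fell in males, and 3 rose and 0 fell in females. Over all tested genes 7.37% passed in males and 8.43% in females. No gene passed the test of the difference between the sexes in edgeR, so these counts do not show that the sexes differed. Cebpd, a family member induced in acute inflammation, fell to 49.2 ± 12.8 CPM in leukemic libraries, against 99.4 ± 47.6 CPM in non-leukemic libraries (log2 fold change -1.05 ± 0.31, edgeR adjusted p = 0.0323), although the call was lost in 6 of 12 fits that left out a library. Cebpe, which late neutrophil precursors need to make their secondary granules, averaged 26.8 ± 4.99 CPM in leukemic and 57.9 ± 20.8 CPM in non-leukemic libraries without overlap (log2 fold change -1.16 ± 0.24, edgeR adjusted p = 0.00446). Ddit3, which encodes the stress factor CHOP, averaged 14.1 ± 4.69 CPM in leukemic and 23.2 ± 4.62 CPM in non-leukemic libraries (log2 fold change -0.81 ± 0.17, edgeR adjusted p = 0.00604). Over all tested genes 9.2% fell and 8.71% rose. Of 12 listed C/EBP target genes, 5 fell, 1 rose and 6 did not pass, with a median log2 fold change of -0.39. In males 6 fell and 1 rose (median -1.17), and in females 1 fell and 1 rose (median 0.31, with 7 of 12 above 0). The genes that fell were led by the neutrophil granule genes Ltf and Camp. The granule genes Mpo, Elane and Prtn3 of the same list did not pass (log2 fold changes of 0.29, -0.58 and -0.1). Ltf, which encodes lactoferrin, had a log2 fold change of -1.88 ± 0.23 (edgeR adjusted p = 0.000158), Camp, which encodes cathelicidin, -1.85 ± 0.35 (edgeR adjusted p = 0.00281), and Chil3, a chitinase-like secreted protein, -1.31 ± 0.26 (edgeR adjusted p = 0.00341). Il6, an inflammatory cytokine, was the one that rose, at 11.8 ± 3.66 CPM in leukemic and 2.69 ± 1.03 CPM in non-leukemic libraries without overlap (log2 fold change 2.08 ± 0.33, edgeR adjusted p = 0.00096). The summed share of neutrophil markers, which include Ltf and Camp, was lower in the leukemic libraries.

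**Figure D2:**
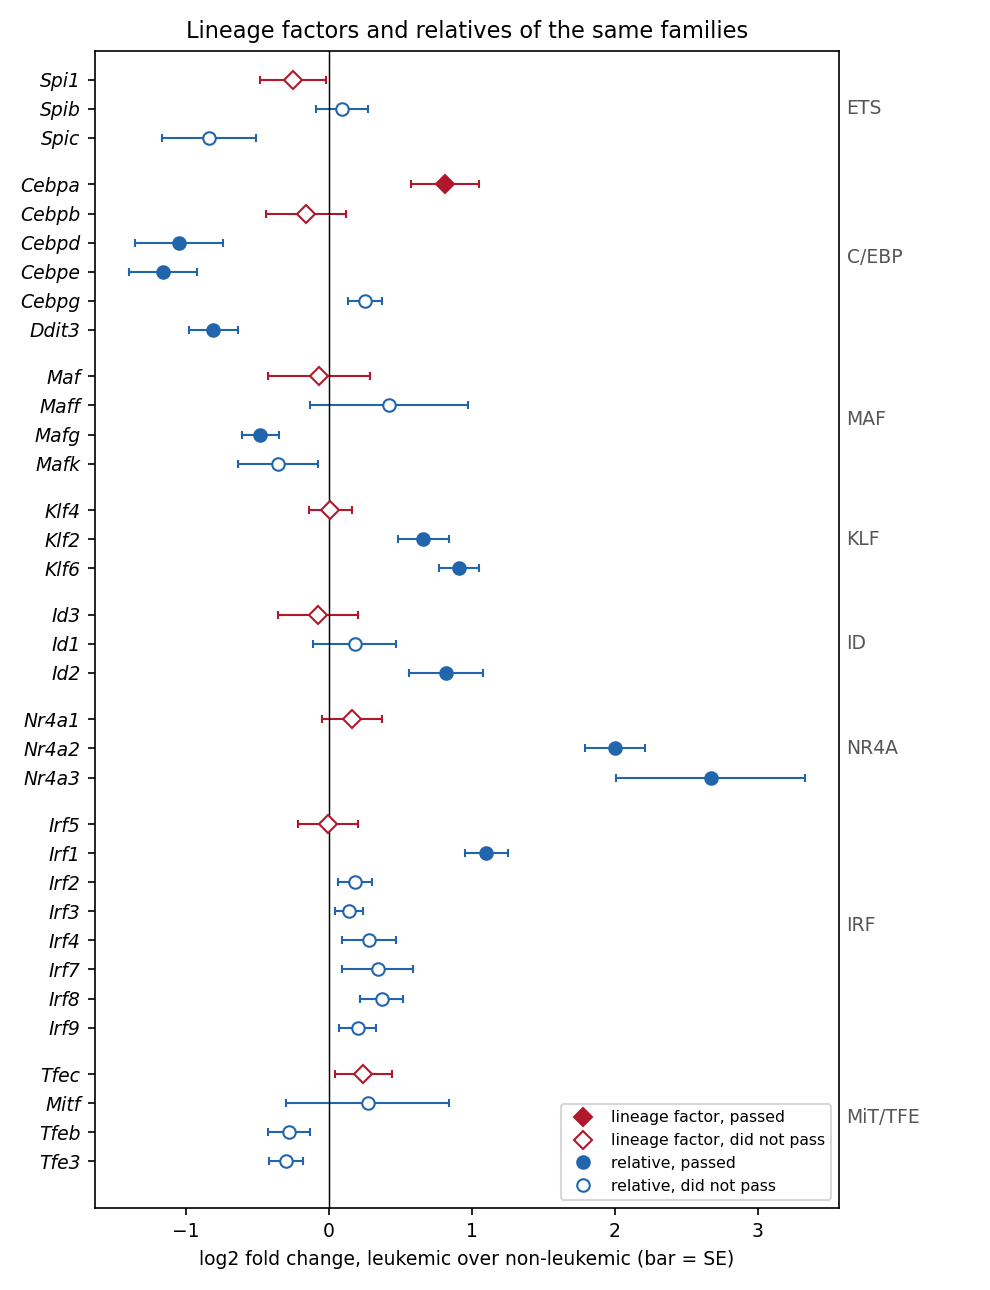
Log2 fold change, leukemic over non-leukemic, of the 9 genes and their 25 family relatives, grouped by family, with bars for the SE from edgeR; filled points passed at an adjusted p under 0.05. In the C/EBP family Cebpa lies at 0.81 while Cebpd and Cebpe lie at -1.05 and -1.16, and in the NR4A family Nr4a2 and Nr4a3 lie at 2.0 and 2.67 while Nr4a1 lies at 0.16.

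The promoters of Cebpa and Cebpb are shown because one gene passed and the other did not. Each is on the strand of the gene, from 250 bases before to 50 bases after its annotated start, from RefSeq on build GRCm38.p6, at chr7:35119043-35119342 (plus strand) for Cebpa and chr2:167688665-167688964 (plus strand) for Cebpb. Capitals mark matches, on either strand, to the core of the cAMP response element, TGACG or its reverse complement CGTCA.
Cebpa: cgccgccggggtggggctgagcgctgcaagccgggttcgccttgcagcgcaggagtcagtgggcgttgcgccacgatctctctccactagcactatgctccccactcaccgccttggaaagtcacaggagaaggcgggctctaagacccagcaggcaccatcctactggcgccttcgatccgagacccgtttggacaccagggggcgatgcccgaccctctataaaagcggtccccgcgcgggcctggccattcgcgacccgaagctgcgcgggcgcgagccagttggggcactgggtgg
Cebpb: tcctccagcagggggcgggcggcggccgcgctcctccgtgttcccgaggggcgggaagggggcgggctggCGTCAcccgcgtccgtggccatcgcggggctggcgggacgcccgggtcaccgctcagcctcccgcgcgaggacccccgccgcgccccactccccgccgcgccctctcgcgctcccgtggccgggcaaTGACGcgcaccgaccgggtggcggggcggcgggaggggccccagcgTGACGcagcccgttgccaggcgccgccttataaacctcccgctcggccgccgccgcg
The Cebpa promoter held 0 matches and that of Cebpb held 3. Of 32851 mouse promoters of this length, 20.8% held at least 1 match and 1.03% held at least 3. Both promoters held 1 match to the TATA box letters TATAAA, which 13.6% of promoters held. GC content was 67.3% for Cebpa and 80.7% for Cebpb. The shares are over all promoters, without regard to GC content. A match describes the letters and is not evidence of binding.

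Irf5 encodes an interferon regulatory factor that acts downstream of Toll-like receptors. It ranged between 64.0 and 141 CPM in leukemic libraries (median 110), against 76.8 to 170 CPM in non-leukemic libraries (median 91.1). Its groups overlapped, with the lowest value in female leukemic replicate 2 and the highest in male non-leukemic replicate 3. The log2 fold change was -0.00389 ± 0.21 (SE; 95% interval -0.46 to 0.45; edgeR adjusted p = 0.993). Its annotated exons share 411 bases with Tnpo3, a nuclear import receptor gene on the opposite strand with a mean of 131 CPM, so part of the Irf5 count is uncertain.

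Among its relatives, Irf1, an interferon-induced activator, was higher in all 6 leukemic libraries, at 107 to 152 CPM against 41.1 to 70.8 CPM in non-leukemic libraries (log2 fold change 1.10 ± 0.15, edgeR adjusted p = 0.000363). Irf8, the factor that directs precursors towards monocytes and dendritic cells, was at 393 ± 114 CPM in leukemic and 278 ± 44.0 CPM in non-leukemic libraries (log2 fold change 0.37 ± 0.15, edgeR adjusted p = 0.112). Its male leukemic values, 483, 532 and 471 CPM, were above all other libraries, whose highest was 333 CPM. Of 8 listed cytokine genes that Irf5 can drive, 6 could be tested. Of these 3 rose, 0 fell and 3 did not pass, with a median log2 fold change of 0.71. Over all tested genes 8.71% rose. Besides Il6, the genes that rose were Ccl5, a T cell attracting chemokine that T and NK cells also make (log2 fold change 1.49 ± 0.36, edgeR adjusted p = 0.0125), and Il12a, a subunit of interleukin-12 (0.65 ± 0.20, edgeR adjusted p = 0.0448). The Il12a call was lost in 10 of 12 fits that left out a library. All 13 T and NK cell markers were higher in leukemic libraries, and their part in the Ccl5 value was not tested.

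Maf encodes c-MAF and had the lowest level per kilobase of the 9 genes. It ranged between 6.07 and 14.5 CPM in leukemic libraries (median 11.3), against 5.53 to 25.0 CPM in non-leukemic libraries (median 8.88). The values overlapped, and the highest, 25.0 CPM, was male non-leukemic replicate 3, where the next highest non-leukemic library had 10.9 CPM. The log2 fold change was -0.07 ± 0.36 (SE; 95% interval -0.86 to 0.71; edgeR adjusted p = 0.924), and without that library it was 0.32. Its relative Mafg, a small MAF protein that pairs with larger bZIP factors, averaged 53.2 ± 9.79 CPM in leukemic and 69.9 ± 7.31 CPM in non-leukemic libraries (SD, n = 6 each), with overlap. Mafg passed at a log2 fold change of -0.48 ± 0.13 (edgeR adjusted p = 0.0229), but lost the call in 4 of 12 fits that left out a library.

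Several genes that MAF factors activate fell, while Maf did not pass. Of 8 listed genes 5 fell, 1 rose and 2 did not pass, with a median log2 fold change of -1.40, and their summed share was 0.0239 to 0.0669% of counts in leukemic and 0.0653 to 0.283% in non-leukemic libraries. Cd163, the scavenger receptor for haemoglobin, averaged 8.46 ± 3.77 CPM in leukemic and 37.0 ± 15.2 CPM in non-leukemic libraries (log2 fold change -2.31 ± 0.26, edgeR adjusted p = 7.62e-05). Mrc1, the mannose receptor, had a log2 fold change of -1.98 ± 0.26 (edgeR adjusted p = 0.000204), and Axl, a receptor for dying cells, one of -1.75 ± 0.32 (edgeR adjusted p = 0.00217). Each of these 3 genes had all leukemic below all non-leukemic libraries, a pattern shown by 3.63% of all tested genes. Each is also a marker of resident macrophages, of which 10 of 12 fell, against 9.2% of all tested genes. Il10, an anti-inflammatory cytokine, went the other way, at 5.22 ± 2.98 CPM in leukemic and 0.951 ± 0.989 CPM in non-leukemic libraries (log2 fold change 2.66 ± 0.80, edgeR adjusted p = 0.0352), a call lost in 8 of 12 fits that left out a library.

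Tfec, the macrophage member of the MiT/TFE family, ranged between 7.45 and 14.8 CPM in leukemic libraries (median 12.2), against 6.59 to 14.3 CPM in non-leukemic libraries (median 8.25). The groups overlapped (log2 fold change 0.24 ± 0.20, SE; 95% interval -0.20 to 0.67; edgeR adjusted p = 0.478). Its relative Mitf, a regulator of osteoclasts and mast cells, was low, at 2.64 ± 1.76 CPM in leukemic and 1.83 ± 1.02 CPM in non-leukemic libraries (edgeR adjusted p = 0.804). Of 8 listed MiT/TFE targets, 7 could be tested, and of these 1 fell, 0 rose and 6 did not pass, with a median log2 fold change of -0.21. Over all tested genes 17.9% passed and 9.2% fell, so 1 of 7 is near the background and is not a result about the list. The one that fell was Acp5, the tartrate-resistant acid phosphatase of osteoclasts and some macrophages (log2 fold change -1.16 ± 0.18, edgeR adjusted p = 0.000811), which was lower in every leukemic library.

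Id3 encodes a protein that binds E proteins and keeps them off DNA. It ranged between 18 and 42.3 CPM in leukemic libraries (median 22.0), against 18.4 to 42.2 CPM in non-leukemic libraries (median 24.3). The groups spanned the same range (log2 fold change -0.08 ± 0.28, SE; 95% interval -0.69 to 0.53; edgeR adjusted p = 0.890). Its relative Id2, which also binds E proteins, averaged 245 ± 83.3 CPM in leukemic and 133 ± 33.3 CPM in non-leukemic libraries. Id2 passed at a log2 fold change of 0.82 ± 0.26 (edgeR adjusted p = 0.046), but lost the call in 8 of 12 fits that left out a library. The ratio of Id2 to Id3 was 3.85 to 13.5 in leukemic and 3.19 to 6.81 in non-leukemic libraries, with 5 of 6 leukemic libraries above every non-leukemic one.

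Nr4a1 encodes NUR77, an orphan nuclear receptor that patrolling monocytes require and that many signals induce within minutes. It was at 130, 211 and 139 CPM in male leukemic and 88.1, 44.3 and 79.4 CPM in female leukemic libraries, against 104, 103 and 134 CPM in male non-leukemic and 61.2, 81.3 and 74.7 CPM in female non-leukemic libraries. The conditions overlapped, and the values separated by sex instead. The log2 fold change between conditions was 0.16 ± 0.21 (SE; 95% interval -0.28 to 0.61; edgeR adjusted p = 0.656).

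Both other members of its family rose. Nr4a2 was at 28.9, 30.6 and 29.3 CPM in male leukemic and 11.3, 13.7 and 20.9 CPM in female leukemic libraries, against 4.08 to 5.98 CPM in the 6 non-leukemic libraries (log2 fold change 2.0 ± 0.21, edgeR adjusted p = 4.19e-05). Nr4a3 was at 1.5 to 6.52 CPM in leukemic and 0.0591 to 1.42 CPM in non-leukemic libraries (log2 fold change 2.67 ± 0.66, edgeR adjusted p = 0.014), and its lowest non-leukemic values lie under the floor of 3 counts, which corresponds to 0.100 to 0.177 CPM. Every leukemic library lay above every non-leukemic library for both genes, a pattern shown by 5.05% of all tested genes. Both kept their calls with each library left out in turn. The ratio of Nr4a2 to Nr4a1 was 0.128 to 0.309 in leukemic and 0.0397 to 0.0891 in non-leukemic libraries, and the ratio of Nr4a3 to Nr4a1 was 0.0261 to 0.0480 in leukemic and 0.000576 to 0.0180 in non-leukemic libraries. Neither ratio overlapped between conditions, and the share of all gene pairs that do so was not counted.

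The 3 NR4A promoters are shown to set the gene that did not pass beside the pair that rose. They are from RefSeq on build GRCm38.p6, at chr15:101266596-101266895 (plus strand) for Nr4a1, chr2:57123954-57124253 (minus strand) for Nr4a2 and chr4:48045055-48045354 (plus strand) for Nr4a3, with the same window and capitals as for Cebpa.
Nr4a1: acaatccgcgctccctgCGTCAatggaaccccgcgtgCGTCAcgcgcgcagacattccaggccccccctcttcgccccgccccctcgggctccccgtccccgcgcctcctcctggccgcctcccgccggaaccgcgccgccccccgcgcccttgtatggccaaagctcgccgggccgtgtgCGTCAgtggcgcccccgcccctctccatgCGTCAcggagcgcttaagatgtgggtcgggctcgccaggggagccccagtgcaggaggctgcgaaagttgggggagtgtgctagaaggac
Nr4a2: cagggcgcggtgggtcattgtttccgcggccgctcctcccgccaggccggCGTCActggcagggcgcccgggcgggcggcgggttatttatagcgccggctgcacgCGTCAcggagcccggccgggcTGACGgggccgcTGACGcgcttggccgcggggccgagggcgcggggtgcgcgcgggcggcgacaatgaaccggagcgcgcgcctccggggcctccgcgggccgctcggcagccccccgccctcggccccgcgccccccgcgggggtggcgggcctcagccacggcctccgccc
Nr4a3: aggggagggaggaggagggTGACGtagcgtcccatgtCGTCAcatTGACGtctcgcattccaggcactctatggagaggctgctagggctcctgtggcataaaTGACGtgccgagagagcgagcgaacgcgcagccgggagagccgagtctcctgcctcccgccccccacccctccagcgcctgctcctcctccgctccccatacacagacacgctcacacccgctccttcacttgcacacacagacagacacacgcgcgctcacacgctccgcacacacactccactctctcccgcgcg
Each of the 3 promoters held 4 matches to the core of the cAMP response element, and 0.231% of all promoters held at least 4. The gene that did not pass and the pair that rose thus did not differ in this count. None of the 3 held a match to the AP-1 letters TGANTCA on either strand, which 7.81% of promoters held. GC content was 72.3% for Nr4a1, 81.7% for Nr4a2 and 64.7% for Nr4a3, and the shares were taken without regard to it.

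Of 9 listed genes of NR4A1-dependent patrolling monocytes, 3 fell, 2 rose and 4 did not pass. Their median log2 fold change was -0.92, and over all tested genes 9.2% fell and 8.71% rose. Cd36, a scavenger receptor, averaged 23.2 ± 7.45 CPM in leukemic and 76.3 ± 12.3 CPM in non-leukemic libraries (log2 fold change -1.81 ± 0.19, edgeR adjusted p = 4.01e-05). Cx3cr1, the fractalkine receptor, and Fabp4, a fatty acid binding protein, each had a log2 fold change of -1.33, with SEs of 0.28 and 0.33 (edgeR adjusted p = 0.00602 and 0.0145). Spn, which encodes CD43, rose by 0.59 ± 0.10 on the log2 scale (edgeR adjusted p = 0.00159), and Itgal, which encodes the integrin CD11a, by 0.72 ± 0.17 (edgeR adjusted p = 0.0117). Both are also expressed on T cells, whose markers were higher in leukemic libraries, and their part in these values was not tested.

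**Figure D3:**
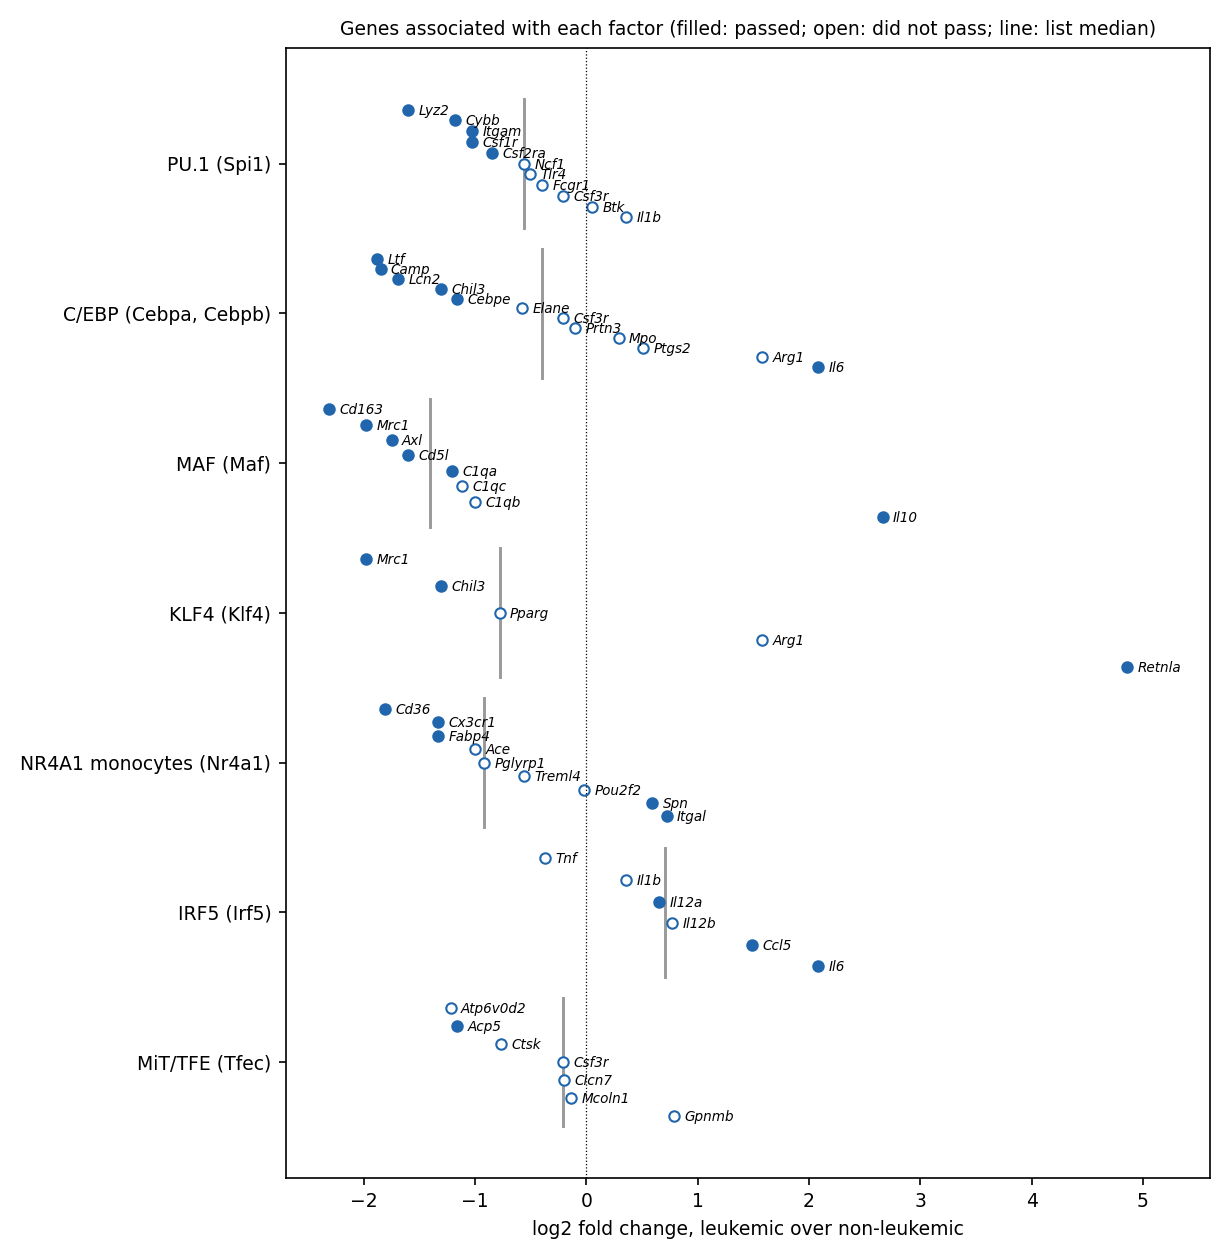
Log2 fold change, leukemic over non-leukemic, of listed genes associated with each factor, one point per tested gene, filled where the gene passed at an edgeR adjusted p under 0.05; the vertical line is the list's median. Medians lie between -1.40 for the MAF list and 0.71 for the Irf5 list, and several genes stand in more than one list.

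Klf4 encodes a zinc finger factor that precursors need to become Ly6c-positive monocytes. It was at 29.4, 40.8 and 27.9 CPM in male leukemic and 19.1, 17.9 and 18.5 CPM in female leukemic libraries, against 24.3, 30.1 and 33 CPM in male non-leukemic and 21.3, 18.9 and 15.1 CPM in female non-leukemic libraries. The conditions overlapped, with a log2 fold change of 0.01 ± 0.15 (SE; 95% interval -0.32 to 0.34; edgeR adjusted p = 0.976), the narrowest interval of the 9 genes. Its relatives Klf2 and Klf6 both rose. Klf6, which supports inflammatory gene expression, averaged 354 ± 134 CPM in leukemic and 175 ± 46.3 CPM in non-leukemic libraries (log2 fold change 0.91 ± 0.14, edgeR adjusted p = 0.000623). Klf2, which restrains myeloid activation, averaged 278 ± 86.9 CPM in leukemic and 171 ± 55.9 CPM in non-leukemic libraries (log2 fold change 0.66 ± 0.18, edgeR adjusted p = 0.0242). Of 5 genes of the alternatively activated macrophage linked to Klf4, 1 rose, 2 fell (Mrc1 and Chil3, given above) and 2 did not pass. Their median log2 fold change was -0.78, and over all tested genes 8.71% rose and 9.2% fell. The one that rose was Retnla, a secreted protein of alternative activation, at 1.65 to 30.7 CPM in leukemic and 0 to 1.25 CPM in non-leukemic libraries (edgeR adjusted p = 0.00222).

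Over 25 family relatives of the 9 genes, 6 rose, 4 fell and 15 did not pass, with a median log2 fold change of 0.20. Of 17 further factors that work with them in macrophages, 7 rose, 0 fell and 10 did not pass, with a median of 0.35. Over all tested genes 8.71% rose and 9.2% fell. Egr1, an early response factor that promotes the monocyte fate, averaged 436 ± 182 CPM in leukemic and 107 ± 28.4 CPM in non-leukemic libraries (log2 fold change 1.91 ± 0.17, edgeR adjusted p = 1.79e-05). Fos, an AP-1 subunit, had a log2 fold change of 1.08 ± 0.15 (edgeR adjusted p = 0.000355), and Bhlhe40, a repressor active in inflamed myeloid cells, one of 1.62 ± 0.24 (edgeR adjusted p = 0.000506). Runx1, a stem cell factor upstream of Spi1, averaged 146 ± 44.4 CPM in leukemic and 81.8 ± 12.7 CPM in non-leukemic libraries (log2 fold change 0.74 ± 0.19, edgeR adjusted p = 0.0161). Runx1 was highest in female leukemic replicate 2, at 213 CPM, and lowest among leukemic libraries in female leukemic replicate 1, at 74.9 CPM, the same libraries that held the highest and lowest leukemic Cebpa. Of 14 immediate early genes, which respond to handling as well as to signals, 10 rose, 1 fell and 3 did not pass. Fos, Junb, Egr1 and Zfp36 stand both in this list and among the 17 factors, so the counts are not separate. The part of the immediate early genes in the results was not tested.

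Klf4 and Nr4a1 were separated by sex in these 12 libraries, without passing the edgeR test. Klf4 averaged 30.9 ± 5.6 CPM in male and 18.5 ± 2.0 CPM in female libraries, and Nr4a1 averaged 137 ± 39.5 CPM in male and 71.5 ± 16.0 CPM in female libraries (SD, n = 6 each). For both genes all 6 male libraries lay above all 6 female libraries, and of the 15758 tested genes 24 (0.152%) did so. The log2 fold change of male over female was 0.68 ± 0.15 for Klf4 (95% interval 0.35 to 1.01) and 0.85 ± 0.21 for Nr4a1 (95% interval 0.40 to 1.29), and they ranked 38 and 61 of all tested genes by unadjusted p, at 0.000728 and 0.00132. Neither passed the adjustment, with edgeR adjusted p of 0.298 and 0.335. A higher male estimate was not particular to them. In their listed relatives the male over female log2 fold change was 0.75 ± 0.14 for Klf6, 0.67 ± 0.18 for Klf2, 0.52 ± 0.20 for Nr4a2 and 0.54 ± 0.63 for Nr4a3. Male and female values of these relatives overlapped, and none passed (edgeR adjusted p of 0.17, 0.408, 0.604 and 0.872).

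No gene at all passed that comparison in edgeR: 0 of 15758 (0.0%), with 1132 (7.18%) at an unadjusted p under 0.05, against 112 in DESeq2 and 5 in limma-voom. Xist, the transcript of the silenced X chromosome, had an edgeR adjusted p of only 0.0857 at a log2 fold change of -5.36 ± 0.77. In DESeq2 Klf4 and Nr4a1 passed, with adjusted p of 0.00654 and 0.0188, while in limma-voom neither did. DESeq2 made more false calls on simulated counts of the comparison between conditions, 21.6% against 4.6% for edgeR. The simulation changed few genes and took its spread from edgeR's own estimate, and the comparison of the sexes was not simulated. These rates therefore do not decide between the tools there. The other 7 genes were not separated by sex. Tfec was nearest, at 12.5 ± 2.61 CPM in male and 8.36 ± 1.72 CPM in female libraries (log2 fold change 0.51 ± 0.20, edgeR adjusted p = 0.611).

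**Figure D4:**
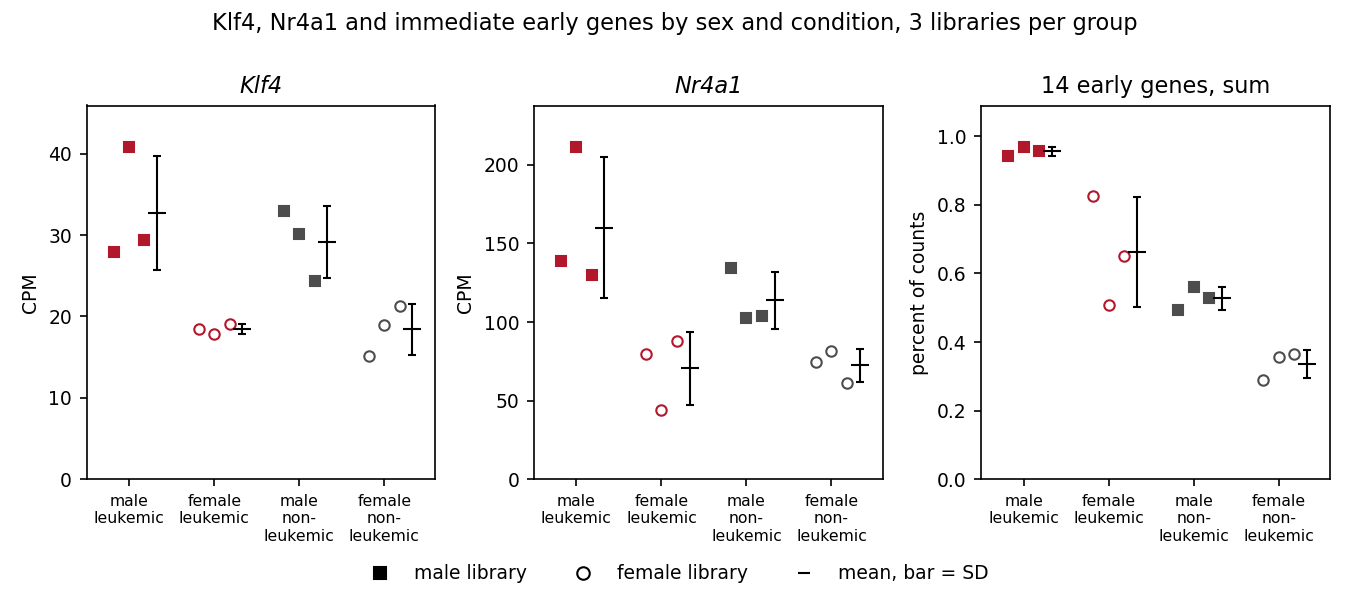
Klf4 and Nr4a1 in CPM and the summed share of 14 immediate early genes in percent of counts, by sex and condition; points are libraries, and bars are the SD around the mean of 3 libraries. All male libraries lie above all female libraries for both genes, and the early gene share is higher in males within each condition.

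Other genes with all male above all female libraries, chosen after their values were seen, included Atf3, a stress-induced factor (male over female log2 fold change 2.10 ± 0.37), Socs3, a feedback inhibitor of cytokine signals (1.86 ± 0.32), Sgk1, a kinase induced by serum and steroids (0.77 ± 0.15), and Trib1, a pseudokinase that promotes the decay of C/EBPα protein (0.79 ± 0.18), beside Y-linked genes. The 24 genes of this pattern also held, among others, Col1a2 (2.56 ± 0.61), Trem1 (0.92 ± 0.20) and Exoc1 (0.38 ± 0.12). In the opposite direction, 21 genes had all male below all female libraries. The immediate early share was 0.941 to 0.968% of counts in male leukemic and 0.507 to 0.826% in female leukemic libraries, and 0.492 to 0.561% in male non-leukemic and 0.288 to 0.365% in female non-leukemic libraries. Of the 14 immediate early genes, 13 had a male over female log2 fold change above 0, with a median of 0.55 against -0.01 over all genes, and 0 passed in edgeR. Only 1 of the 14, Atf3, had all male above all female libraries. The immediate early share was thus higher in male libraries within each condition, as Klf4 and Nr4a1 were. Whether collection of male and female mice differed in time or handling is not in the labels, and its part in the result was not tested.

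The Klf4 promoter is shown to set it beside that of Nr4a1, since these were the members that separated by sex. It is from RefSeq on build GRCm38.p6, at chr4:55532426-55532725 (minus strand), with the same window and capitals.
Klf4: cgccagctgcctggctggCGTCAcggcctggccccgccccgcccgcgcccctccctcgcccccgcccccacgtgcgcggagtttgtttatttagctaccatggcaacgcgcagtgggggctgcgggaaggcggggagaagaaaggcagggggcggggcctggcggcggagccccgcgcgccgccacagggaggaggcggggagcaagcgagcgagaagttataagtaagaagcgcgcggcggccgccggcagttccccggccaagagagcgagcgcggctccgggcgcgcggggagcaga
It held 1 match to the cAMP response element core, against 4 in Nr4a1, and 4 matches to the GC box letters GGGCGG or their reverse complement CCGCCC, where 5.49% of promoters held at least 4. That share was taken without regard to GC content, which was 74.3% for Klf4. Among the remaining matched members, Id3 held 1 cAMP response element match, and Irf5 and Tfec held 0. RefSeq promoters were matched for 7 of the 9 genes, not for Spi1 or Maf.

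The response to leukemia was also taken within each sex. In females 1 of the 9 genes passed, against 8.43% of all tested genes: Cebpa, with a log2 fold change of 1.19 ± 0.32 (95% interval 0.48 to 1.89; edgeR adjusted p = 0.0427). That call was not made by limma-voom (adjusted p = 0.0568) and was lost in 9 of 12 fits that left out a library. Those 12 include fits without a male library, which keep all female libraries. In males 0 of 9 passed in edgeR, DESeq2 or limma-voom, against 7.37% of all tested genes in edgeR. Spi1 and Cebpb had unadjusted p of 0.0380 and 0.0418 there. Cebpa had a male log2 fold change of 0.43 ± 0.32 (95% interval -0.26 to 1.13; edgeR adjusted p = 0.491). The male effect minus the female effect was -0.75 ± 0.45 (edgeR adjusted p = 0.824), so a difference between the sexes in the Cebpa response was not shown.

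Spi1, Cebpb and Id3 had estimates of opposite sign in the sexes. The log2 fold change of Cebpb was -0.74 ± 0.33 in males and 0.43 ± 0.32 in females, that of Id3 was -0.70 ± 0.32 in males and 0.54 ± 0.32 in females, and that of Spi1 was -0.66 ± 0.28 in males and 0.17 ± 0.28 in females. None of these passed. For the difference between the sexes, Id3 was at -1.24 ± 0.45 (unadjusted p = 0.0183), Cebpb at -1.17 ± 0.46 (0.0256) and Spi1 at -0.83 ± 0.40 (0.0594), each with an edgeR adjusted p of 0.819. Across all genes 0 (0.0%) passed this interaction in edgeR, with 925 (5.87%) at an unadjusted p under 0.05, against 23 in DESeq2 and 0 in limma-voom.

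With each of the 12 libraries left out in turn, the signs held and the sizes moved. Leaving out a library of the other sex keeps the libraries compared, so those fits are a weak check. The male log2 fold change of Spi1 was -0.66 to -0.64 when a female library was left out. Over all 12 fits the log2 fold change of Id3 was -0.93 to -0.39 in males and 0.42 to 0.84 in females. That of Cebpb was -0.95 to -0.27 in males and 0.28 to 0.75 in females. That of Spi1 was -0.93 to -0.19 in males and 0.12 to 0.32 in females. For Spi1 the male non-leukemic libraries were at 223, 356 and 572 CPM, against male leukemic values of 267, 285 and 267 CPM, so the leukemic values lie inside the non-leukemic span. For Id3 the male leukemic values of 18, 23.6 and 18.3 CPM stood against 18.4, 42.2 and 27.2 CPM in male non-leukemic libraries, and male non-leukemic replicate 2 set the upper end. Without male non-leukemic replicate 1, the lowest of its group for Spi1, the male log2 fold change of Spi1 was -0.93 with an edgeR adjusted p of 0.0357, the only one of the 12 fits in which it passed. Without male non-leukemic replicate 3, the highest of its group, it was -0.19 with an edgeR adjusted p of 0.651.

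Genes that varied most like each of the 9 over the 12 libraries were found from the deviations of log2 CPM from the condition means, with Pearson's r given as a description; these points share library depth and the libraries that stood apart. Over 7970 genes, Spi1 was nearest to Nrros (r = 0.976), a microglia and macrophage regulator of TGF-β and reactive oxygen, and to the Src family kinase Lyn (0.974). Over 10 libraries, without the pair that stood apart, these were 0.917 and 0.899. Cebpa was nearest to the kinase gene Camk1 (0.959, and 0.949 over 10 libraries) and to the glycogen phosphorylase gene Pygl (0.952 and 0.934). Nr4a1 was nearest to Bhlhe40 (0.958 and 0.963) and the phosphatase gene Dusp5 (0.931 and 0.951), and Klf4 to Trib1 (0.927 and 0.921) and Sgk1 (0.924 and 0.927). These deviations keep the difference between the sexes, which a gene near Klf4 or Nr4a1 therefore shares.

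Id3 was nearest to Trp53i13 (0.948, and 0.940 over 10 libraries) and to Cd79a, a B cell receptor subunit (0.948 and 0.957). B cell and plasma cell markers made up 0.0778 to 1.04% of counts in leukemic and 0.0978 to 0.276% in non-leukemic libraries, and their part in the Id3 values was not tested. Irf5 was nearest to the cathepsin gene Ctsh (0.964 and 0.942) and the interferon-inducible gene Ifi207 (0.958 and 0.930). Maf was nearest to Ms4a6b (0.967 and 0.896) and Tmem19 (0.964 and 0.909). Cebpb was nearest to Rgs14, a regulator of G protein signalling (0.938 and 0.852), and to Gpr183, an oxysterol receptor (0.929 and 0.781), the pair that lost most. Tfec was nearest to the actin regulator gene Twf1 (0.946 and 0.991) and to Sc5d, an enzyme of sterol synthesis (0.870 and 0.854).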

How the data were processed

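Gene counts of 12 libraries were deposited by the authors as 1 table of whole-number read counts per gene. Per the labels' protocols, cDNA was amplified by the SMARTer v4 low-input kit out of 1 ng of RNA; that kit does not mark strand, and libraries were made with Nextera XT. Per the submitters' processing notes, bcl2fastq 2.19.1, fastp 0.23.1, STAR 2.7.9a, featureCounts of Subread 2.0.1 and build GRCm39 were used, and DESeq2 1.28.1 in R 4.0.2 is also named. Columns were matched to samples by library name.

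From the counts, CPM of column totals were computed. Tests used edgeR 4.0.16 in R 4.3.3 (TMM, filterByExpr, robust quasi-likelihood F test, Benjamini-Hochberg adjustment over 15758 genes). SEs are the log2 fold change divided by the square root of F. Alternatives were DESeq2 1.42.0, limma-voom (limma 3.58.1), other size factors and filters, a replicate block and libraries left out. On simulated counts over 14936 genes for the comparison between conditions, edgeR recovered 68% of 2-fold and 98% of 4-fold changes, with 4.6% false calls. Few genes were changed there and the spread was edgeR's own estimate, so these rates need not hold for the data. Exon lengths and overlaps came from GENCODE M21 and promoters from RefSeq GRCm38.p6, so their coordinates are not those of the counting. No 2 libraries of a group agreed within sampling noise (lowest chi-square per degree of freedom 24.7).

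The 9 genes and the gene lists were chosen with earlier results of these data known. Named besides the 9 were, per list of factors or targets, up to 3 genes in each direction with the lowest p among those that passed, plus Irf8, Spic, Id2, Klf2, Nr4a2, Nr4a3, Cebpd, Mitf and Runx1; for cell lists Ptprc and Adgre1; and per gene the 2 genes of mean log2 CPM at least 4 with the highest r. Exceptions are the genes named for the comparison of the sexes, the sort genes Ly6g and Ly6c2, and the granule genes Mpo, Elane and Prtn3. Genes of the eosinophil, basophil and mast cell list that passed are also named. A further family relative was left out of the lists and is not reported here.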

Additional observations from a re-analysis of the deposited data

Results flagged for a closer look

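Each group of 6 libraries was checked for a highest or lowest value whose gap to the next is too wide a part of the range by Dixon's 95% limit. Of 64 groups, 14 were marked, where chance marks about 1 in 20. Among the 9 genes, Maf at 25.0 CPM and Irf5 at 170 CPM in male non-leukemic replicate 3 lay above the other non-leukemic libraries, which held 5.53 to 10.9 and 76.8 to 99.6 CPM. Id3 at 42.2 CPM in male non-leukemic replicate 2 lay above the others at 18.4 to 27.2 CPM.

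Male non-leukemic replicate 3 was also highest for the summed shares of MAF targets (0.283% of counts), NR4A1-dependent monocyte genes (0.173%), MiT/TFE targets (0.0731%), pan-macrophage markers (0.575%), resident macrophage markers (0.214%) and dendritic cell markers (0.0546%). Female leukemic replicate 1 was highest of the leukemic libraries for the Irf5 targets (0.0434%) and lowest for stem and progenitor markers (0.0921%) and stromal and endothelial markers (0.00723%). Female leukemic replicate 2 was lowest for pan-macrophage markers (0.107%) and highest for eosinophil, basophil and mast cell markers (3.68%).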

How the results depend on the processing

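Log2 fold changes are given throughout, and the causes of the shifts were not tested. Between conditions, 978 genes and 0 of the 9 passed against a minimum change of 1.5-fold, and 4717 genes passed without the pair of libraries that stood apart (replicate 1 of the female leukemic and replicate 3 of the male non-leukemic group). In DESeq2, 2053 genes passed in males, 2366 in females, 23 in the interaction and 112 by sex, with 2 of the 9 by sex. Without the pair, 2728 genes passed in males and 2368 in females. In limma-voom 0 of the 9 passed in females and 5 genes by sex, and in the fit of only the female libraries 0 of the 9 passed. With 1 library left out, 513 to 2087 genes passed in males, 504 to 1773 in females and 0 to 4 by sex, and 0 to 1 of the 9 passed between conditions, in males and in females. Replicate numbers did not pair the libraries (correlations of deviations -0.0317 to 0.0782); with a replicate block 2509 genes passed between conditions and Cebpa was at 0.83 (edgeR adjusted p = 0.0156).

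Some estimates turned sign, not all of them near 0. Without the pair, between conditions, Spi1 was at 0.01, Cebpb 0.03, Maf 0.09 and Irf5 0.18; in males Maf 0.50 (-0.36 with all libraries) and Irf5 0.51; in females Maf -0.32 and Klf4 -0.07; in the interaction Maf 0.82 (-0.58 with all libraries), Klf4 0.25, Irf5 0.67 and Tfec 0.24; by sex Cebpa -0.22. Irf5 between conditions was at 0.01 to 0.02 under other size factors (0.01), DESeq2 (0.01), limma-voom (0.02), no filter (0.02), a 5 CPM filter (0.01) and the replicate block (0.02). In males Irf5 was at 0.09 (limma-voom), 0.02 (no filter), 0.06 (replicate block) and 0.02 (only male libraries), and Klf4 at -0.01 (replicate block). In females Nr4a1 was at 0.01 under other size factors, DESeq2, no filter and only female libraries and at 0.04 with the 5 CPM filter, and Irf5 at 0.02, 0.02, 0.01, 0.02 and 0.04. In the interaction Irf5 was at 0.15 (limma-voom), 0.01 (no filter) and 0.09 (replicate block), and Klf4 at 0.01 (no filter). By sex Cebpa was at -0.03 in limma-voom.

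With 1 library left out, ranges that cross 0 were, between conditions, Spi1 -0.31 to 0.01, Cebpb -0.29 to 0.11, Maf -0.34 to 0.32, Klf4 -0.05 to 0.09, Id3 -0.18 to 0.12, Irf5 -0.08 to 0.21 and Mitf -0.15 to 0.59. In males they were Maf -0.73 to 0.47, Klf4 -0.17 to 0.16, Irf5 -0.22 to 0.49 and Tfec -0.01 to 0.35. In females they were Maf -0.32 to 0.53, Klf4 -0.07 to 0.17, Nr4a1 -0.27 to 0.31 and Irf5 -0.16 to 0.27. In the interaction they were Maf -0.99 to 0.26, Klf4 -0.23 to 0.15, Irf5 -0.27 to 0.50 and Tfec -0.35 to 0.17, and by sex Cebpa -0.11 to 0.23.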
